A study of Homo sapiens with 2 samples.

Results

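Olfactory receptor genes, with the pseudogenes that carry receptor symbols, were examined in a genome-wide map of JARID2 binding in the cell line MDA-MB-231, grown from a triple-negative breast tumour. Members were the peaks whose nearest transcript carries an olfactory receptor symbol, that is OR, a family number, subfamily letters and a member number, with a final P for a pseudogene. They came to 374 of the 67071 listed peaks, under 268 of 26257 symbols. Gene symbols numbered 140, with 182 peaks, and pseudogene symbols 128, with 192 peaks. The series has 1 chromatin immunoprecipitation (ChIP) library, made with a polyclonal JARID2 antibody, and 1 library of input DNA that was not precipitated, both from untreated cells. The peak list of the JARID2 library was the data, with positions on the hg19 build and distances to the start of the named Ensembl transcript. Each value below is the authors' own for a peak. No difference could be tested, since the ChIP library has no replicate. Its depth is unknown, and intervals cover counting error only. The sources used here do not say how reads that match several near-identical receptor copies were placed, so a peak may belong to another copy than the one named. The cell line was not checked against marker genes, because a peak list holds no expression.

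Olfactory receptors are G protein-coupled receptors that bind odorants on the cilia of sensory neurons in the nose. Their genes form the largest gene family in mammals, mostly with a coding sequence in a single exon, and lie in clusters where intact genes alternate with pseudogenes. Each neuron expresses a single receptor allele while the rest lie in compact chromatin, and most other tissues keep the family silent. Class I receptors (families 51 to 56) share a cluster on chromosome 11, and class II receptors (families 1 to 14) are spread over many chromosomes. JARID2 is a protein that joins PRC2, a Polycomb complex that methylates lysine 27 of histone H3 and is found in many cell types at promoters rich in CG pairs.

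Receptor peaks were low and held few tags, the sequenced fragments counted in a peak. Fold enrichment, a linear ratio of ChIP to the peak caller's background, ranged from 3.22 to 10.6 over the 374 receptor peaks, against 2.62 to 158.75 over the whole list. The medians were nearly the same, at 5.955 (95% order-statistic interval 5.82 to 6.18) for receptor peaks and 5.95 (5.95 to 5.99) for all peaks. Tags per peak ran from 9 to 27 with a median of 12 for receptor peaks, against 9 to 1299 with the same median for all peaks. The difference lay in the upper tail. At least 20 tags were held by 20 receptor peaks (5.35%), against 9905 (14.8%) of all peaks. No receptor peak had 28 tags or more, which 3284 peaks of the list (4.90%) reached. That limit lies just above the receptor maximum of 27, so the absence of receptor peaks beyond it was fixed by the choice. In all, receptor peaks held 4807 of the 1000395 tags in the list.

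**Figure D1:**
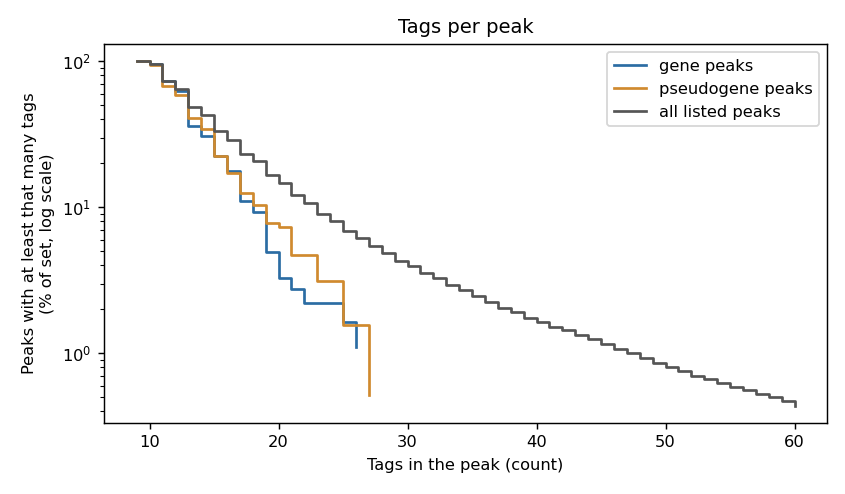
Share of peaks (percent of each set, log scale) that hold at least the number of tags on the horizontal axis, for the 182 gene peaks, the 192 pseudogene peaks and all 67071 peaks. The gene curve ends at 26 tags and the pseudogene curve at 27, while the curve of all peaks continues beyond the plotted range.

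A single receptor peak reached a false discovery rate (FDR) of at most 5%. It was given to the pseudogene OR6C69P on chromosome 12 (55653157 to 55653846), with 26 tags (95% Poisson interval 17.0 to 38.1), a fold enrichment of 8.83 and an FDR of 1.07%. It lay 2477 bp upstream of the transcription start site (TSS), among the OR6C genes. This was 0.267% of receptor peaks (exact Clopper-Pearson 95% interval 0.00677 to 1.48), where 1.24% of all peaks reached that limit, a value inside the interval. Of the 182 gene peaks 0 reached it, which allows a share of up to 2.01%. Below an FDR of 20% there were 7 receptor peaks (1.87%, 0.756 to 3.82), against 4.15% of all peaks. Besides OR6C69P these belonged to OR1N2 (12.5%), OR4K17 (13.1%), OR4C2P (14.8%), OR6M2P (14.9%), OR52E4 (16.6%) and OR5G5P (16.9%). OR5G5P was the last inside that limit, and OR5B3, with 26 tags and an FDR of 24.6%, was the next beyond it. Read as −log10 p, a score of at least 5 was held by 30 receptor peaks (8.02%, 5.48 to 11.3), where 12.9% of all peaks had it. Most receptor peaks, 270 or 72.2%, had an FDR above 40%, against 70.3% of all peaks.

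The highest receptor peaks rested on few tags. OR4K17, a class II gene on chromosome 14 (20583216 to 20583642), had 16 tags (9.15 to 26.0) and a fold enrichment of 10.6. The pseudogene OR5G5P on chromosome 11 (56570690 to 56570976) had the same fold enrichment from 12 tags (6.20 to 21.0). OR5R1 and OR6C72P both stood at 9.71 with 12 tags, and OR5BA1P at 9.10 with 16 tags. The tag intervals of these 5 peaks overlap, so their order is not resolved. Among genes OR5H2 and OR5AS1 followed at 8.83, OR2M4 and OR2L5 at 8.18 and OR1N2 at 8.17. OR4K1, OR13J1 and OR8K1, with 15, 11 and 12 tags, shared 7.95 with other genes. Among pseudogenes OR6C69P, OR4C2P, OR7E89P and OR4C50P shared 8.83, OR51A8P had 8.70, and OR5H8P and OR6L1P had 8.0. The same few values recurred in the list. The values 5.30, 6.18 and 7.06 alone were held by 44, 43 and 34 receptor peaks, together with 5933, 7555 and 5706 peaks of the whole list, themselves included.

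The peaks with most tags were not the highest. OR6M3P had 27 tags at a fold enrichment of 4.09 (FDR 39.8%) on chromosome 11 (123733257 to 123734130). With 26 tags each, OR1N2 and OR6C69P stood at 8.17 and 8.83, but OR5B3 stood at 5.04 and OR2AL1P at 5.16.

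The intervals of genes and pseudogenes overlapped in height, tags, FDR and position. The median fold enrichment was 5.95 (5.66 to 6.18) for gene peaks and 5.96 (5.72 to 6.18) for pseudogene peaks. The highest peak of each kind had the same fold enrichment, 10.6, and each kind had a median of 12 tags. The median FDR was 45.6% (43.9 to 45.8) for genes and 43.9% (42.6 to 45.3) for pseudogenes. Promoter peaks, within 3 kb of a TSS, made up 60 of 182 gene peaks (33.0%, 26.2 to 40.3) and 57 of 192 pseudogene peaks (29.7%, 23.3 to 36.7). A single peak was the rule in both kinds, with 106 of 140 gene symbols and 88 of 128 pseudogene symbols. Intron peaks made up 12.6% (8.18 to 18.4) of gene peaks and 22.4% (16.7 to 29.0) of pseudogene peaks.

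**Figure D2:**
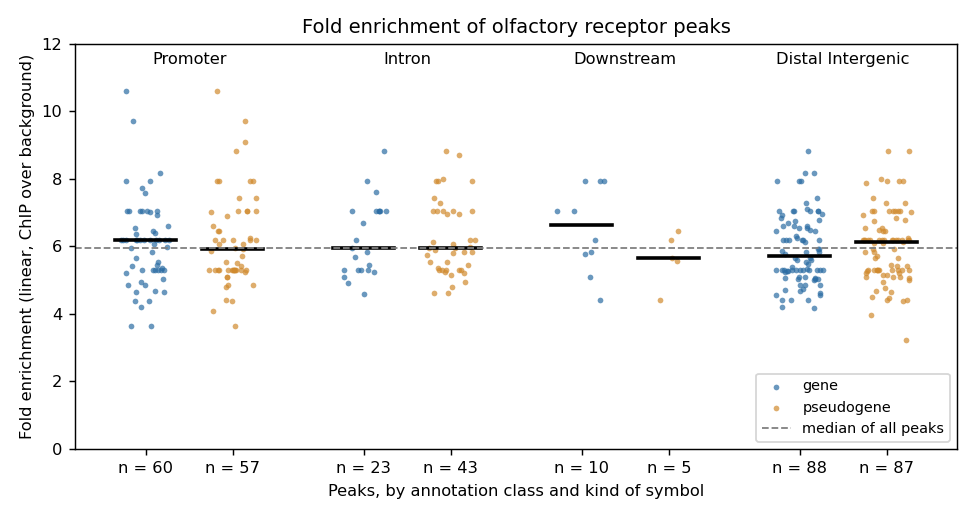
Fold enrichment (linear) of receptor peaks by annotation class, genes left of pseudogenes, with 1 point per peak, bars at the group medians and a dashed line at 5.95, the median of all peaks. All group medians lie between 5.66 and 6.62, and the 1 exon peak, of OR7A5, is not drawn.

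Receptors were set by name against all those annotated in RefSeq. Fewer receptor genes than protein-coding genes in general had a peak under a matched name. More receptor pseudogenes than pseudogenes in general had a promoter peak under a matched name. A peak of any class was given to 138 of 390 protein-coding receptor genes (35.4%, 30.6 to 40.4) and to 130 of 474 receptor pseudogenes (27.4%, 23.5 to 31.7). Any peak was given to 56.3% of all protein-coding genes and to 23.8% of all pseudogenes. A promoter peak was given to 54 receptor genes (13.8%, 10.6 to 17.7) and 55 receptor pseudogenes (11.6%, 8.86 to 14.8). Here 33.1% of all protein-coding genes and 6.25% of all pseudogenes had one. For receptor genes both general shares lie outside the interval, while for receptor pseudogenes this holds for promoter peaks and not for peaks of any class. A peak of −log10 p of at least 5 was given to 14 receptor genes (3.59%, 1.98 to 5.95), against 18.3% of all protein-coding genes, and to 15 receptor pseudogenes (3.16%, 1.78 to 5.17), against 4.96% of all pseudogenes. The median transcript named in the list was 945 bases long for receptor peaks and 5225 bases for all peaks, and the part of length in these shares was not tested. All 268 receptor symbols matched a RefSeq name. For other symbols the matches were not counted, and the list gives some of them clone names. A name without a match counts as no peak, so the general shares may be too low. The part of naming in these comparisons was not tested. RefSeq and the symbols disagreed for 8 of the 268, with 5 names without a final P typed as pseudogenes (among them OR1F12 and OR52A4) and 3 with it as coding (OR5BS1P, OR14L1P and OR5D3P).

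Promoter-class peaks of receptors were not gathered at the start of the named transcript, which is the TSS in all distances given here. For receptor peaks that transcript had a median length of 945 bases. Whether its start is where transcription of the receptor begins was not checked, so the distances describe the annotation used. Promoters held 117 of 374 receptor peaks (31.3%, 26.6 to 36.3), where 20.5% of all peaks were of that class. Only 32 of the 117 lay within 1 kb (27.4%, 19.5 to 36.4), while 47 lay at 1 to 2 kb and 38 at 2 to 3 kb. Over the whole list 52.1% (51.2 to 52.9) of promoter peaks lay within 1 kb. As a share of all receptor peaks, those within 1 kb were 8.56% (5.93 to 11.9), where the list had 10.7%. A peak overlapping the TSS itself was found 7 times (1.87%, 0.756 to 3.82), where 5.47% of all peaks did so.

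The summits, the highest points of the peaks, were more in number just before the TSS of a receptor than just after it, with intervals that overlap. For receptors 25 summits lay in the kilobase before the TSS (95% Poisson interval 16.2 to 36.9) and 11 in the kilobase after it (5.49 to 19.7), which mostly covers the coding sequence. The neighbouring kilobases held 26 summits upstream and 15 downstream, and the bins farther out, to 5 kb, held 10 to 22. For all peaks the same central bins held 3554 and 3670 summits, against 1748 and 1814 in the neighbouring ones. Of summits within 3 kb, 31.3% (23 to 40.6) of the receptors' were within 1 kb, against 52.7% (51.8 to 53.5) of all. For genes this share was 25.4% (15.0 to 38.4) and for pseudogenes 37.5% (24.9 to 51.5).

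**Figure D3:**
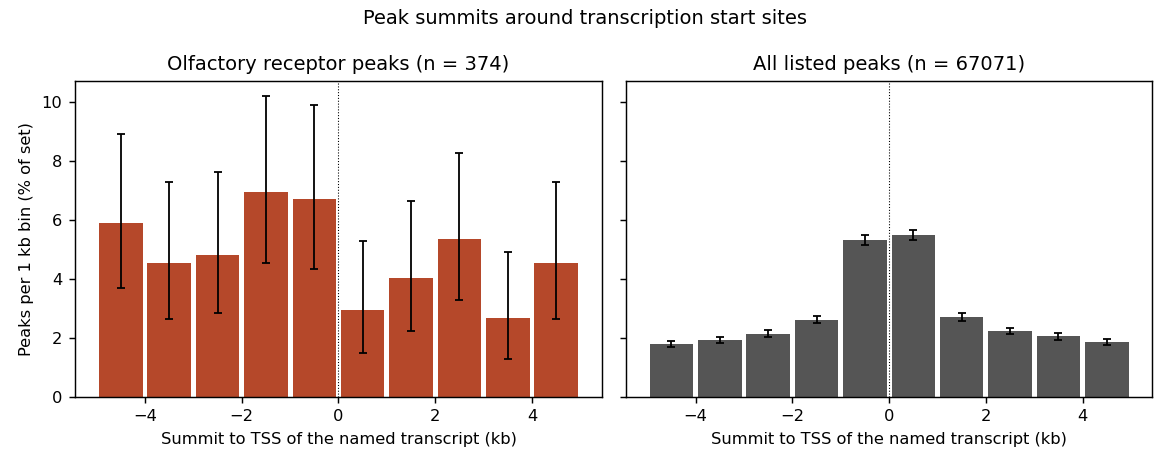
Peak summits per 1 kb bin of distance from the TSS of the named transcript, as a percent of each set, for 374 receptor peaks on the left and all 67071 peaks on the right, with 95% Poisson intervals. The list as a whole peaks in the 2 central bins at 5.30% and 5.47%, while the receptor bins run between 2.67% and 6.95%, with 6.68% in the kilobase before the TSS and 2.94% in the one after it.

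Few receptor peaks touched the transcript they were named for. Only 24 of 374 overlapped it (6.42%, 4.15 to 9.40), where 24.9% of all peaks overlapped theirs. The named transcripts are shorter than those of the list, as given above, and the part of length in this count was not tested. The median distance to the TSS was 5.29 kb for receptor peaks, with quartiles of 2.34 and 11.0 kb, against 13.99 kb for all peaks.

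The 7 peaks that overlapped a TSS were ordinary in height. They belonged to OR7E22P (7.06), OR14L1P (6.89), OR4A6P (5.30), OR7E26P (5.30), OR5BP1P (5.09), OR5P4P (4.85) and OR2K2 (4.66), so a single one carried a name with no final P. Each held 10 to 14 tags, with FDRs from 37.1% for OR14L1P to 47.0% for OR5BP1P. Over the 32 receptor peaks within 1 kb the median fold enrichment was 5.635 (5.30 to 6.36) with a median of 12 tags, against 5.95 (5.90 to 6.0) with 16 tags over all 7165 such peaks. None of the 32 had an FDR of at most 5%, where 7.36% of all peaks within 1 kb did. After OR5G5P the strongest were OR7A11P (7.95), OR2W6P (7.44), OR52N1, OR7E22P and OR14C36 (7.06 each), OR10X1 and OR52V1P (7.01 each), OR14L1P (6.89) and OR8G5 (6.36).

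Promoters of coding receptors were poor in CG pairs, whether or not they had a peak. In the RefSeq windows of 300 bases around the start (GRCh38.p14), the 45 receptors with a promoter peak had a median of 1 CG pair (quartiles 1 and 2, at most 6) and 37.3% G and C. The 200 receptors with no peak also had a median of 1 pair, with 38.3% G and C. Over 15843 protein-coding genes the median was 22 pairs and 62.7%, and over the 413 whose promoter held a peak of at most 5% FDR the median was 28 pairs and 66.7%. At least 15 pairs were found in 3 of 312 receptor promoters (0.962%), against 65.5% of protein-coding promoters. Only 112 of the 268 member symbols have a RefSeq promoter window. The receptor windows all belong to receptors that RefSeq types as coding, so receptor pseudogenes were not covered.

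**Figure D4:**
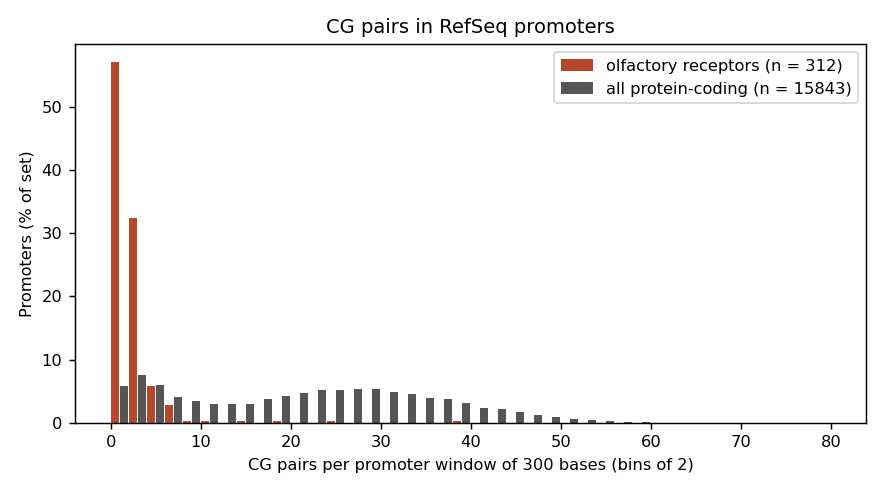
Number of CG pairs in RefSeq promoter windows of 300 bases, in bins of 2, for 312 coding olfactory receptors and 15843 protein-coding genes, as a percent of each set. Receptors gather in the lowest bins with a median of 1, while protein-coding promoters spread widely around a median of 22.

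The 250 bases before the RefSeq start are shown for the 5 receptors with the strongest peak within 1 kb that have such a window, to let the scarcity of CG be seen. EBF4, a gene of the olfaction list below with a strong promoter peak, is added for contrast and was chosen after its values were seen. CG pairs are in capitals, each sequence runs 5′ to 3′ on the gene's strand, and peaks were placed by hg19 transcripts whose start may differ from RefSeq's.
OR52N1: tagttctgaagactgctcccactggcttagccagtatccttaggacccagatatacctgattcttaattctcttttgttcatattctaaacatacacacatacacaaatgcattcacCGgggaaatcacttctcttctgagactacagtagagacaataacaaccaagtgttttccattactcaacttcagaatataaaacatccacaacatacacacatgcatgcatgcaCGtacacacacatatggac
OR14C36: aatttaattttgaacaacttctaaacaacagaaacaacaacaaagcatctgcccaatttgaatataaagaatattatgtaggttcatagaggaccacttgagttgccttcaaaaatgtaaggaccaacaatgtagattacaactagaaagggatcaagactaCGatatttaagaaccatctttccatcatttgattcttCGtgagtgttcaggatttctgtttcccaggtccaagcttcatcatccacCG
OR10X1: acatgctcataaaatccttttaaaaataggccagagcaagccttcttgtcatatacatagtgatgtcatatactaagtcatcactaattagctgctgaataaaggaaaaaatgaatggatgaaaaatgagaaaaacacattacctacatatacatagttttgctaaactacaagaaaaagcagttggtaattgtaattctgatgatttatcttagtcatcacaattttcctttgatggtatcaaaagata
OR14L1P: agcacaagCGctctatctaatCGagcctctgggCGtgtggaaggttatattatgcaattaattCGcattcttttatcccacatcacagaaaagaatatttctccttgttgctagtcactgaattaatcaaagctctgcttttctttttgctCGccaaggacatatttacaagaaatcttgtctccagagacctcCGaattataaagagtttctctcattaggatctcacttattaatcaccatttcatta
OR8G5: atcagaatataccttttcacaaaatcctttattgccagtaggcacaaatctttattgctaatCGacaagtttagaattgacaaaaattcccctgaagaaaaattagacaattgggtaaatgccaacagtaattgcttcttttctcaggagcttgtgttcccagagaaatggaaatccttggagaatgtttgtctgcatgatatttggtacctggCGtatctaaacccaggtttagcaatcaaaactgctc
EBF4: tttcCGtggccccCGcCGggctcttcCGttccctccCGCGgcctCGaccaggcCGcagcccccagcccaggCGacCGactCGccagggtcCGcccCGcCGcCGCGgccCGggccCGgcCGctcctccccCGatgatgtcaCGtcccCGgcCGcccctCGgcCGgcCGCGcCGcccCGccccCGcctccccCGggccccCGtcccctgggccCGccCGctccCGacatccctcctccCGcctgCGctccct
These stretches come from GRCh38.p14. OR52N1, a class I gene, is at chr11:5791266-5791515 on the minus strand and holds 2 CG pairs. OR14C36 is at chr1:248348525-248348774 on the plus strand with 3 pairs. OR10X1 is at chr1:158579900-158580149 on the minus strand with 0 pairs, the lowest of these. OR14L1P, which RefSeq names OR14L1, is at chr1:247616893-247617142 on the plus strand with 6 pairs. OR8G5 is at chr11:124256126-124256375 on the plus strand with 2 pairs. EBF4, at chr20:2692530-2692779 on the plus strand, holds 37 pairs and 82.8% G and C, against 30% to 39.2% in the 5 receptor stretches.

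Motifs of regulators known from mouse olfactory neurons were counted in the same 300-base windows. TAATTA, a homeodomain core that LHX2 can bind and that reads the same on both strands, occurred in 71 of 312 receptor promoters (22.8%), against 4.98% of all 27305 promoters. It was in 12 of the 45 with a promoter peak (26.7%) and in 45 of the 200 with no peak (22.5%). The letters are all A and T, and the receptor windows are far richer in these than other promoters. The EBF (Olf-1) motif, which also reads the same on both strands, was in 3 receptor promoters (0.962%), against 1.20% of all. Of the sequences shown, OR10X1 holds TAATTA once, starting at base -166 counted from -1 just before the start. A match is a description of these letters and not evidence of a bound factor.

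Promoter and distal peaks had overlapping intervals of height. The 117 promoter peaks had a median fold enrichment of 6.06 (5.54 to 6.18) and the 175 distal intergenic peaks 5.92 (5.60 to 6.18). The whole list had 5.92 for promoter and 6.06 for distal intergenic peaks. In genes alone the medians were 6.18 (5.46 to 6.18) for 60 promoter peaks and 5.71 (5.30 to 6.18) for 88 distal ones. In pseudogenes they were 5.92 (5.30 to 6.19) for 57 and 6.13 (5.44 to 6.18) for 87. Distal peaks made up 46.8% (41.6 to 52.0) of receptor peaks, against 36.6% of all. They lay a median of 9.56 kb from the TSS, against 32.2 kb for distal peaks of the whole list. The farthest was 93.8 kb from OR7H2P.

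Receptor peaks within introns were nearly all in introns of other genes, a share that was not counted over the whole list. Introns held 66 receptor peaks (17.6%, 13.9 to 21.9), against 37.2% of all peaks, and for 63 of the 66 the annotated intron was that of a gene other than the one named. The other 3 were in an intron of OR7E14P itself. Of the 63, a peak of OR2W3 (7.06) also overlapped the long transcript of that receptor. Counting the named transcript and not the whole gene, 33.4% of all 24930 intron peaks overlapped theirs. Among the 66 receptor peaks this was 4.55% (0.947 to 12.7). Most named receptor transcripts are short, and the part of length was not tested. TRIM5, an antiviral restriction factor gene, contained 5 of the 63, named for OR52N2, OR52E4, OR52E6, OR52E7P and OR52E8. DAPL1 contained 2, both named for OR7E89P, and GABBR1, a GABA-B receptor subunit gene, contained 1 named for OR2H5P. In these cases the receptor symbol reports the nearest start site and not the gene that holds the peak.

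By chromosome, 154 of the 374 receptor peaks (41.2%) lay on chromosome 11, under 112 symbols. Chromosome 1 had 42 peaks, chromosomes 9 and 12 had 28 each and chromosome 6 had 23, and 19 chromosomes had at least 1. Receptor peaks were 4.11% of all peaks of chromosome 11, against 0.558% over the genome. Set against the annotated family, chromosome 11 was not ahead, since 112 of its 376 receptors had a peak (29.8%, 25.2 to 34.7), against 31.0% (27.9 to 34.2) over all chromosomes. Among the other chromosomes with at least 30 annotated receptors, the share ran from 19.0% on chromosome 19 (8 of 42, 8.60 to 34.1) and 19.4% on chromosome 7 to 45.2% on chromosome 12 (19 of 42, 29.8 to 61.3) and 46.2% on chromosome 9 (18 of 39, 30.1 to 62.8). Most of these intervals overlap, so the order is not resolved. Median fold enrichment on the chromosomes with at least 10 receptor peaks lay between 5.32 on chromosome 6 and 6.61 on chromosome 3.

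**Figure D5:**
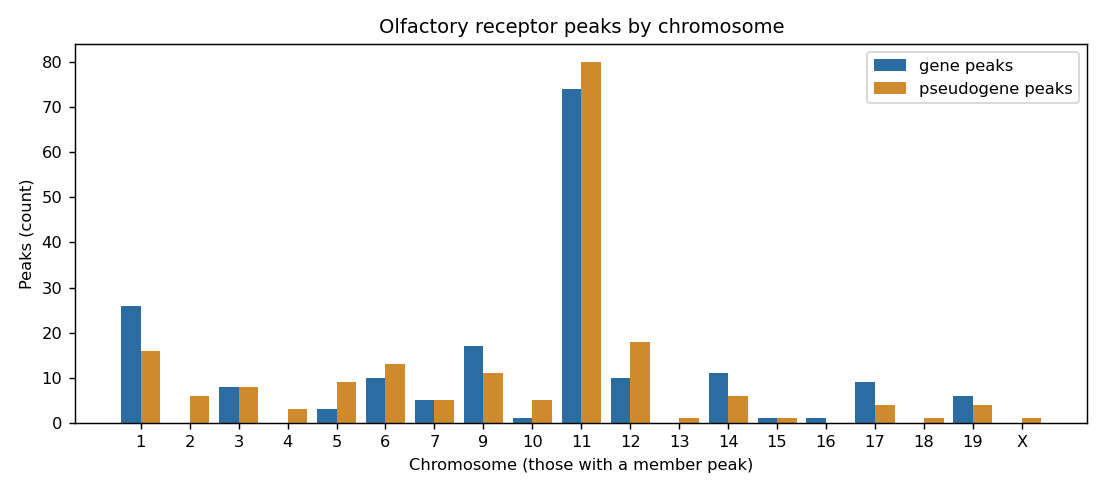
Number of receptor peaks on each chromosome that has one, gene peaks left of pseudogene peaks. Chromosome 11 has 74 gene and 80 pseudogene peaks, and chromosomes 2, 4, 13, 18 and X have pseudogene peaks alone.

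Receptor peaks less than 1 Mb apart formed 54 groups, and the 21 with at least 5 peaks held 319 peaks (85.3%). The largest lay on chromosome 11 at 55112669 to 59206093, with 32 gene and 20 pseudogene peaks led by OR5G5P (10.6). The class I cluster on chromosome 11 at 4392517 to 7767639 had 45 peaks, 40 of them of class I, led by OR51A8P (8.70). At the end of chromosome 1 (247733826 to 248823387) 21 of 24 peaks were of genes, led by OR2M4 and OR2L5 (8.18 each). The OR6C cluster on chromosome 12 (55497752 to 55844842) had 8 gene and 11 pseudogene peaks in 0.347 Mb, led by OR6C72P (9.71). Every listed peak in that span carried a receptor symbol, as was also so in several clusters with fewer peaks. In the wide class II cluster at 55112669 receptors named 49.5% of the 105 peaks, and in the class I cluster 47.9% of 94. Each span runs from its first to its last receptor peak, and a symbol comes from the nearest transcript. High receptor shares within the spans are therefore partly built in.

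The other clusters were led by members of 6.55 to 10.6. OR4K17 (10.6) led on chromosome 14, OR5H2 (8.83) on chromosome 3 and OR1N2 (8.17) on chromosome 9. OR4C2P and OR4C50P (8.83 each) led the groups near the centromere of chromosome 11, and OR6M1 (6.55) the one at 123670928 to 124426912. OR2W6P (7.44) led on chromosome 6, OR1G1 (7.61) on chromosome 17, OR10J9P (7.28) in the other group of chromosome 1 and OR10AD1 (7.28) in the other group of chromosome 12. OR13F1, OR13J1, OR7G3, OR7A11P, OR10AC1P and OR7H2P, each at 7.95, led smaller groups, and OR2BH1P (6.97) formed one alone. The median of a cluster lay between 5.20 and 7.06.

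The 21 cluster spans also held peaks with other symbols. An FDR of at most 5% was found for 1 of the 319 receptor peaks (0.313%) and for 4 of the 245 peaks with other symbols (1.63%), both to be read against the 1.24% of all peaks. Named after their values were seen, they were CoTC_ribozyme (23.84 with 105 tags), in the class I cluster, and SLC43A3 (9.31), FAM111A (10.7) and FAM111B (7.80), in the large class II cluster. Each of these 4 overlapped the start of the transcript it was named for. For CoTC_ribozyme, the name of an RNA element, that start need not be the promoter of a gene. SLC43A3 encodes a membrane transporter, and FAM111A and FAM111B encode related proteases.

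Class I peaks lay closer to start sites than class II peaks. The 40 class I peaks had a median distance of 2.76 kb, and 22 were promoter peaks (55.0%, 38.5 to 70.7). The 334 class II peaks had 5.68 kb and 95 promoter peaks (28.4%, 23.7 to 33.6). Median fold enrichment was 5.44 (5.30 to 6.14) for class I and 6.06 (5.82 to 6.18) for class II. All class I peaks came from 1 locus, so class and locus cannot be told apart. A peak was given to 16 of 55 coding class I receptors (29.1%, 17.6 to 42.9) and to 122 of 335 of class II (36.4%, 31.3 to 41.8). Among pseudogenes the order was the opposite, with 17 of 48 in class I (35.4%, 22.2 to 50.5) and 113 of 426 in class II (26.5%, 22.4 to 31.0), and in both kinds the intervals overlap. OR51E2, a class I receptor known in prostate, had peaks of 5.46 and 5.04 with 19 and 17 tags.

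The OR7E subfamily, nearly all pseudogenes that spread between chromosomes in duplicated blocks, had 27 peaks under 21 symbols. A peak was given to 21 of its 88 annotated members (23.9%, 15.4 to 34.1), against 28.2% (23.7 to 32.9) of other receptor pseudogenes. Its median fold enrichment was 6.18 (5.30 to 6.47), led by OR7E89P (8.83), OR7E46P (7.95) and OR7E14P (7.94), and 0 of its 27 peaks had an FDR of at most 20%, which allows up to 12.8% and so does not set them apart from the 4.15% of all peaks.

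A few symbols gathered several peaks over long distances. OR7H2P, alone on a stretch of chromosome 5, had 8 distal peaks of 4.38 to 7.95, between 10.3 and 93.8 kb from its TSS. OR13F1 had 5 peaks of 4.42 to 7.95 and OR2BH1P 5 of 4.93 to 6.97, 4 of them in an intron of a long transcript. OR5H8P had 4, at 8.0, 7.95, 7.95 and 6.45, in the OR5H cluster of chromosome 3, and OR5B12 had 4 of 5.30 to 7.95.

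Genes that serve olfaction outside the receptor family were set against the shares over all protein-coding genes, of which 56.3% had a peak and 33.1% a promoter peak. Of 14 genes of odour transduction 9 had a peak (64.3%, 35.1 to 87.2) and 5 a promoter peak (35.7%, 12.8 to 64.9), so both general shares lie inside the intervals. An FDR of at most 20% was held by 2 of their 32 peaks, where 4.15% of all peaks held it. GNAL, the G protein subunit that couples receptors to cyclase, had a promoter peak of 7.95 with 21 tags (FDR 18.0%). SLC24A4, a sodium and calcium exchanger, had an intron peak of 8.99 (FDR 14.8%). RIC8B, a chaperone of that G protein, had the highest peak of the list at 9.19 in an intron, and one of 8.70 at its promoter. PDE1C, a phosphodiesterase, had 8.83 in an intron, and CNGB1, a channel subunit, 7.74 at its promoter. ADCY3, the cyclase, had 1 intron peak of 6.18, and no listed peak carried the names CNGA2, CNGA4, OMP, GNG13 or STOML3. Of the 3 trafficking genes REEP1 had 8.08 at most and RTP1 5.82.

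Of 17 genes tied to receptor choice and silencing, mostly from work in mouse, 13 had a peak (76.5%, 50.1 to 93.2) and 11 a promoter peak (64.7%, 38.3 to 85.8). The general share of 56.3% lies inside the first interval, and that of 33.1% lies below the second. The list was chosen with earlier results of these data known, so this is a description only. EBF4, of the Olf/EBF transcription factor family, had 9.26 with 38 tags and an FDR of 1.05% at its promoter (chromosome 20, 2672275 to 2673340, on hg19). KDM1A, the histone demethylase that acts in receptor choice, had 84.67 with 253 tags (FDR 0), 2245 bp downstream of the start of the named transcript. The symbol carried 11 peaks, 8 of them of the promoter class. Whether that start is the main promoter of KDM1A was not checked, and the cause of the height was not tested. At an FDR of at most 5% EBF4 and KDM1A were the 2 genes of the list, where 3.01% of all protein-coding genes had such a peak. LBR, which tethers heterochromatin to the nuclear envelope, had 6.67 (FDR 10.8%) and SETDB1, a histone H3 lysine 9 methyltransferase, 6.06 (FDR 19.7%). LHX2 and its cofactor LDB1, which join receptor enhancers in mouse, had at most 4.27 and 4.13.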

How the data were processed

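The authors fixed, sonicated and precipitated chromatin and made libraries with a transposase-based kit and PCR, per the labels' protocols. The build hg19 and the tools Bowtie 0.12.8 and bcl2fastq, besides ChIPseeker, MACS and MACS2, appear in the submitters' processing notes. Parameters, the role of the input and the handling of duplicate or multiply mapped reads are not stated there. The deposited list gives tag counts per peak that are not normalised, per the file headers. It gives fold enrichment as a linear ratio and FDR as a percent, per the file headers. The header of the deposited score was unreadable, and its place and minimum led to a reading as 10 times −log10 p. Distances and annotation classes are the authors'.

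Peaks were selected by symbol, and symbols were matched to RefSeq (GRCh38.p14) by symbol (259) or by a synonym of 1 gene (9), for names, gene types and promoter windows only. Where a symbol had several promoter windows the first was used. Shares have exact Clopper-Pearson intervals, medians binomial order-statistic intervals and counts Poisson intervals, at 95%, computed with Python 3.11.15, pandas 2.3.3 and SciPy 1.17.1 and tested on simulated data. There is 1 library, so no test was run. The members, lists and comparisons were chosen with earlier results of these data known.

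Named are members at an FDR of at most 5%, the 10 highest genes and 10 highest pseudogenes, the 5 with most tags, the 5 with most peaks, the leader of each cluster of at least 5 peaks, those beside the 20% FDR limit and those on a TSS. In the other olfaction lists, genes at an FDR of at most 20% and up to 3 of largest fold enrichment are named. Any further gene, among them the 10 strongest within 1 kb, other members at 20% FDR, host genes of introns and OR51E2, was chosen after its values were seen.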

Additional observations from a re-analysis of the deposited data

How the results depend on the processing

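A promoter reach of 1 kb in place of 3 kb gave promoter shares of 8.56% for all receptor peaks, 8.24% for genes and 8.85% for pseudogenes. At −log10 p of at least 5, which leaves 30 peaks, the promoter share was 21.4% (4.66 to 50.8) of 14 gene peaks. For the 16 pseudogene peaks it was 31.2% (11.0 to 58.7). The values change order, but the intervals overlap, as they did without this limit, so no order is resolved. Median fold enrichment at this limit was 7.505 for genes and 7.915 for pseudogenes. It was 9.405 for 8 promoter peaks and 7.25 for 14 distal peaks, as a stricter limit on p keeps higher peaks. Annotated receptors with such a peak came to 3.59% of coding genes and 3.16% of pseudogenes (1.78 to 5.17), against 18.3% of all protein-coding genes and 4.96% of all pseudogenes. For pseudogenes the general share lies inside the interval, as it did for peaks of any class without this limit. The higher share of receptor pseudogenes was seen for promoter peaks, which were not counted at this limit. Without the limit, annotated receptors with a promoter peak came to 13.8% of coding genes and 11.6% of pseudogenes. The other values, with 1 peak per symbol, neighbouring peaks counted once, gene types from RefSeq, no OR7E members or a gap of 0.5 Mb (24 clusters against 21), stayed within the intervals of the values reported or, for clusters, within 1.5 times. No paired analysis was possible because there is 1 library with a peak list. Few tags limit the receptor peaks, since 12 tags, their median, have a 95% Poisson interval of 6.20 to 21.0.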

Other observations

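Other chemoreceptor families, and beside them the MS4A and formyl peptide receptor genes, were chosen by symbol. Their median fold enrichments lay between 5.525 and 7.06, where the olfactory receptors had 5.955. A peak of any class was given to 56.3% of all protein-coding genes and 23.8% of all pseudogenes, and a promoter peak to 33.1% and 6.25%. Names without a RefSeq match count as no peak in these shares too. Of 38 taste receptors, 28 of them coding, 15 had a peak (39.5%, 24.0 to 56.6), with a median fold enrichment of 6.06 over 25 peaks, and 2 had a promoter peak (5.26%, 0.644 to 17.7). TAS1R2, a subunit of the sweet receptor, had the strongest at 11.48 with 21 tags and an FDR of 16.9%, 101245 bp from its TSS. Of 109 type 1 vomeronasal receptors, nearly all pseudogenes in humans, 18 had a peak (16.5%, 10.1 to 24.8), with a median of 6.18. VN1R37P stood highest at 7.95, and VN1R7P had 1 peak of 4.07 at an FDR of 19.7% that held 155 tags, more than any olfactory receptor peak. Of 9 trace amine-associated receptors 3 had a peak (33.3%, 7.49 to 70.1), the highest at 6.18 (TAAR1). Of 17 MS4A genes 7 had one (41.2%, 18.4 to 67.1), led by MS4A4E at 9.71 with an FDR of 32.6%. None of these families had a peak at an FDR of at most 5%, nor did the 18 type 2 vomeronasal pseudogenes or the 3 formyl peptide receptors, where FPR1 had 5.65. With 1.24% of all peaks inside that limit, these families have too few peaks for the absence to set them apart.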
